A study of Mus musculus with 5 samples.

Results

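The genes described here are 40 immediate-early and heat-shock genes of the mouse, taken by symbol from the gene lists of the droplet files, which hold 28692 genes. The 40 were read in 3 groups: 9 genes of the AP-1 and Egr families of transcription factors (Fos, Fosb, Jun, Junb, Jund, Egr1, Egr2, Egr3 and Atf3), 7 heat-shock genes (Hspa1a, Hspa1b, Hsp90aa1, Hspa8, Hsph1, Dnajb1 and Hspb1) and 24 other immediate-early genes. All 40 symbols were found in the files. The series profiled single cells from kidneys of 8-week-old C57/BL6 mice after unilateral ureteric obstruction (UUO), which blocks urine outflow from a kidney, and after its reversal. 4 droplet libraries were used: sham surgery on day 0, UUO day 2, UUO day 7, and kidneys 7 days after reversal, at experimental day 14, called reversed here. No sham or obstructed library of day 14 is among them, so reversal and the time elapsed since day 7 cannot be told apart. Each library pooled cells of 3 mice, so every group is 1 library and no difference between groups has a replicate check. No agent, allele or transgene is named for any group. A plate-based library that mixed the time points without a key to its wells was not used.

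Immediate-early genes are transcribed within minutes of a stimulus without new protein synthesis, since the factors that switch them on, such as serum response factor and CREB, are already in the cell. Fos and Jun proteins pair to form AP-1, Egr proteins are zinc-finger factors, and products such as Dusp1, a phosphatase of MAP kinases, and Zfp36, which destabilises mRNA, limit the signal again. Heat-shock genes follow another route, in which HSF1, released by unfolded protein, binds heat-shock elements and raises chaperones such as Hspa1a. Both programmes are known to be switched on by enzymatic digestion of tissue as well as by injury. Kidneys for all 4 libraries were digested on ice and sorted with DAPI to leave out dead cells, per the labels' protocols, and no library made without digestion was analysed here, so levels in the intact kidney and levels raised by handling cannot be told apart.

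The 5 promoter stretches that follow are shown because they hold sites known from each family, and because Hspa1a and Hspa1b, which the results treat side by side, are near copies. Each is the 250 bases before the RefSeq transcription start (build GRCm38.p6), written 5′ to 3′ along the gene. Capitals mark the CRE core TGACG (or its reverse complement) in Fos and Fosb, and the heat-shock element GAANNTTC in Hspa1a, Hspa1b and Hspb1.
Fos, chr12:85473640-85473889, plus strand: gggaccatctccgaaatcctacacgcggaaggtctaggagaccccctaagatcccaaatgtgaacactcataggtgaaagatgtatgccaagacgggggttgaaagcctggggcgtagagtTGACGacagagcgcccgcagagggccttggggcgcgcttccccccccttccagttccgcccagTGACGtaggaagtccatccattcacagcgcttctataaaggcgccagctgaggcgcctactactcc
Fosb, chr7:19310046-19310295, minus strand: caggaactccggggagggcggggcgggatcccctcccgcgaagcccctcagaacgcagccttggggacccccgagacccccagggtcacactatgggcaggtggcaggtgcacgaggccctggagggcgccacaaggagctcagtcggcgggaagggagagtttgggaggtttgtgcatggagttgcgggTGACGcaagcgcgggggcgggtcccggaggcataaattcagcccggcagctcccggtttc
Hspa1a, chr17:34972157-34972406, minus strand: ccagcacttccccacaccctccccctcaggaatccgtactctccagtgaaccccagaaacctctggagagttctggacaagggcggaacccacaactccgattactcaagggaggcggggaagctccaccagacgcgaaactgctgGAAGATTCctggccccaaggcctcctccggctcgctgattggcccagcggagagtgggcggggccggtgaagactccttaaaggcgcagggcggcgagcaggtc
Hspa1b, chr17:34959239-34959488, minus strand: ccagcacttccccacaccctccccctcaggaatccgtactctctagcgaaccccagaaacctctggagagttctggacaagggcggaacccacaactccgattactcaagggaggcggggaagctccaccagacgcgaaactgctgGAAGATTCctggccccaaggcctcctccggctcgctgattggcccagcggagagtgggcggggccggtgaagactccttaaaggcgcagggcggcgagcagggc
Hspb1, chr5:135887669-135887918, plus strand: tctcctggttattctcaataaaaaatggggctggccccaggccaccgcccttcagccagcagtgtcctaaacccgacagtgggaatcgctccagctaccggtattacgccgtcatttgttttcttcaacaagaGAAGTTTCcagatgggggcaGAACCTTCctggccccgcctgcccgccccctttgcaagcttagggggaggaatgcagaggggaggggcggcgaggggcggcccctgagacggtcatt
The Fos stretch held 2 such cores, at 129 to 125 and 66 to 62 bases before the start. The Hspa1a and Hspa1b stretches were identical at 247 of 250 bases and both held 1 heat-shock element, 104 to 97 bases before the start. Of 40 members, 32 had a promoter in the table. GAANNTTC was found, on either strand, in 3 of the 5 heat-shock genes with a promoter (Hspa1a, Hspa1b and Hspb1), in 1 of 7 AP-1 and Egr genes (Jun) and in 0 of 20 other immediate-early genes, against 6.69% of all 32851 promoter stretches. The other phase of this element, TTCNNGAA, was found in 1 heat-shock gene (Hsph1), 1 AP-1 and Egr gene (Egr2) and 0 others, against 7.17% of all. The core TGACG was found in 5 of the 7 AP-1 and Egr genes (Atf3, Egr2, Fos, Fosb and Junb), 10 of 20 other immediate-early genes and 2 of 5 heat-shock genes, against 17.8% of all. Hspb1 is among those 2, and its core is not in capitals, so the printed sites do not divide the families. The full CRE, TGACGTCA, which contains the core, was found in 4 members (Btg2, Dusp1, Maff and Ppp1r15a) and in 1.55% of all stretches. The AP-1 site TGAGTCA was found in 0 members, against 4.46% of all, and the CArG box in Egr2 and Zfp36, against 1.47%. In all, 8 motifs were searched, and the Egr site and TATA box are not described here. A member was counted if any of its stretches matched, and Egr2 (5 stretches), Maff (3), Hsph1 (2) and Dnajb1 (2) had more than 1, while the shares of all are per stretch. These matches describe letters in a 250-base window and nothing about binding.

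The files gave unique molecular identifiers (UMIs) per gene and cell. The deposited libraries held 2739 to 4504 cells under injury or reversal and 5938 in sham, and 2207 to 4447 cells per library remained after cells under 200 genes or over 50% mitochondrial UMIs were left out. Cells were gated into 11 classes on 97 marker genes, none of which is a member. Levels are UMIs per 1000000 nuclear-encoded UMIs (CPM) summed over the cells of a class in a library, with exact 95% Poisson intervals, and ratios are log2 of CPM + 1 with exact 95% intervals. Both intervals cover counting error only, not differences between mice. A gene was compared where it had at least 30 UMIs over both libraries, and at least 2-fold was used as the mark of a large difference. Mononuclear phagocytes numbered 63, 542, 2447 and 630 in sham, day 2, day 7 and reversed, endothelial cells 224, 164, 485 and 371, and proximal tubule cells 3174, 573, 162 and 1110. The 10 genes leading each of the 11 classes held no marker of another class. Pairs of libraries shared 16 to 39 cell barcodes. In all classes examined, fewer transcribing cells and less RNA per cell cannot be told apart from summed levels alone, which is why shares of cells are given beside them. Consecutive comparisons share libraries and are not independent.

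In mononuclear phagocytes as a whole, the AP-1 and Egr genes stood higher 7 days after reversal than on UUO day 7, while the heat-shock genes differed little. All 9 AP-1 and Egr genes had a higher level in reversed than on day 7, and their median log2 ratio was 0.62 against -0.02 over the 11969 genes compared. The share of all genes with a ratio above 0 is given below, with the other immediate-early genes. Of the AP-1 and Egr genes, 4 of the 8 with enough UMIs were at least 2-fold higher (Fos, Fosb, Egr1 and Atf3). 0 were at least 2-fold lower, where 1.85% of all genes were 2-fold higher and 0.986% 2-fold lower. The heat-shock median was 0.18, and 0 of 7 passed 2-fold either way. In phagocytes without UMIs of at least 2 C1q genes, a split described below, the AP-1 and Egr median was 0.04, with 3 of 7 above 0. Fos (-0.52), Junb (-0.45) and Atf3 (-0.56) were among those lower in reversed there. That subset held 40 cells on day 7 and 88 in reversed, and on day 7 it does not stand for a kind of phagocyte.

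Values for the 4 libraries are given in the order sham, UUO day 2, UUO day 7, reversed. Fos, a subunit of AP-1, measured 233, 564, 482 and 1026 CPM. Over the whole gate the reversed library was thus the highest and its Poisson interval did not overlap the others (log2 ratio over day 7 of 1.09, interval 1.04 to 1.14). In phagocytes without UMIs of at least 2 C1q genes Fos was instead lower in reversed than on day 7. It measured 524 and 753 CPM there (-0.52, interval -0.84 to -0.20). At 1000 nuclear UMIs per cell, 12.7%, 31.4%, 24.4% and 39.0% of phagocytes held a Fos UMI, so for Fos the share of cells and the summed level gave the same order. Without thinning those shares were 20.6%, 74.2%, 57.2% and 72.5%, and day 2, the library with the deepest phagocytes, then stood highest. Fosb, a Fos relative, was at 0 UMIs in sham, where 3 counts would be 13.4 CPM, and reached 13.8, 42.6 and 98.5 CPM in the later libraries. Reversed Fosb was therefore at least 7.34-fold above the sham limit.

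Egr1, the zinc-finger factor most often read as an activity marker, measured 58.2, 81.7, 104 and 251 CPM, and was 2.40-fold higher in reversed than on day 7 (log2 ratio 1.26, interval 1.15 to 1.36). Atf3, a stress-induced bZIP factor that can pair with Jun, measured 125, 154, 115 and 273 CPM, with the first 3 libraries close together and reversed apart (1.24, interval 1.14 to 1.34). Jun, Junb and Jund showed smaller ratios over day 7 of 0.44, 0.56 and 0.51. Junb, at 421, 828, 830 and 1224 CPM, showed its larger step between sham and day 2. Egr2 lay between 13.4 and 24.05 CPM (reversed over day 7 of 0.31), and Egr3 did not exceed 0.627 CPM in any library.

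**Figure D1:**
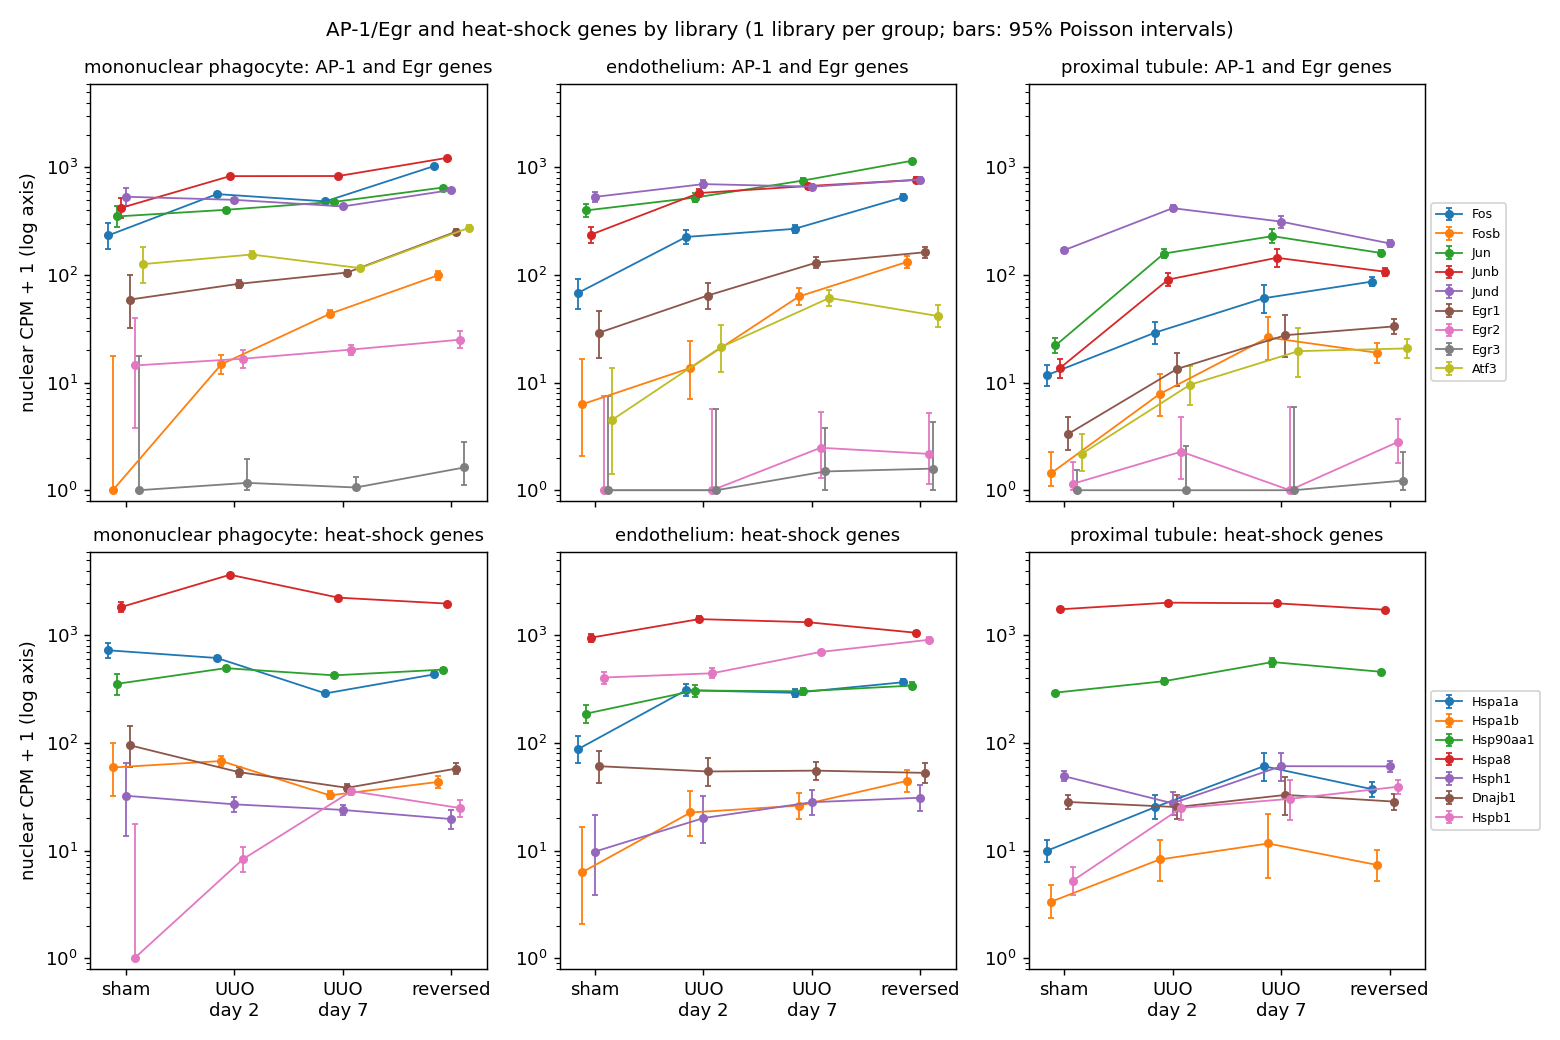
Levels of the 9 AP-1 and Egr genes (top) and 7 heat-shock genes (bottom) in 3 gated classes, as nuclear CPM + 1 on a log axis, by library; points are single libraries, bars 95% Poisson intervals, and lines only join a gene's points. In phagocytes Fos reaches 1026 CPM in reversed and 482 on day 7, while Hspa8 is highest on day 2 at 3654 CPM.

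The heat-shock genes of phagocytes had a different course, with their high point before reversal. Hspa8, the constitutive HSC70 chaperone, measured 1834, 3654, 2238 and 1971 CPM, highest on day 2. Hspa1a, the inducible HSP70, measured 725, 615, 288 and 432 CPM, so its lowest level was on day 7 (log2 ratio over day 2 of -1.09, interval -1.15 to -1.03). Hspa1b gave nearly the same ratio, -1.06. Since the pair are near copies, the division of reads between them is uncertain, and their agreement is not a second measurement. Dnajb1, the HSP40 partner of HSP70, measured 94.0, 52.6, 37.3 and 56.7 CPM, likewise lowest on day 7. Between day 2 and day 7 the heat-shock median was -0.49, with 2 of 7 at least 2-fold lower and 1 at least 2-fold higher, against 2.68% and 8.11% of the 11888 genes compared, while the AP-1 and Egr median was 0.00 with 1 of 8 higher. The gene that was higher was Hspb1, the small heat-shock protein HSP27, at 0, 7.32, 34.7 and 23.8 CPM. Endothelium held 404 to 908 CPM of Hspb1 in the same libraries. When free RNA, set by proximal tubule genes, was subtracted from phagocytes, Hspb1 was left at 0, 0, 4.51 and 0 CPM, so nearly all of its level went.

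Among the 24 other immediate-early genes of phagocytes, all 24 had a ratio of reversed over day 7 above 0, as did 46.6% of all genes compared, with a median of 0.57. 2 of the 24 were at least 2-fold higher, against 1.85% of all genes. Phlda1, a pleckstrin-homology protein, measured 26.8, 119, 40.04 and 101 CPM, high on day 2 and in reversed and lower on day 7 (reversed over day 7 of 1.31, interval 1.14 to 1.48). In phagocytes without UMIs of at least 2 C1q genes Phlda1 measured 23.5, 71.9, 80.9 and 40.8 CPM, highest on day 7. Nr4a2, an orphan nuclear receptor, was the other gene at least 2-fold higher, at 0, 17.7, 12.2 and 29.7 CPM (1.22, interval 0.91 to 1.52). The feedback phosphatase Dusp1 measured 143, 543, 233 and 435 CPM, the same up-down-up shape as Phlda1 over the whole gate. Btg2, an antiproliferative gene, measured 331, 290, 410 and 735 CPM. The smallest ratios were those of Mcl1, an anti-apoptotic BCL2 relative (0.07, interval -0.03 to 0.16), and Socs3, a cytokine feedback inhibitor (0.20). Between day 2 and day 7, 4 of the 24 were at least 2-fold lower, Phlda1 (-1.55), Myc (-1.39), Ier3 (-1.28) and Dusp1 (-1.22), and 1, Nr4a3 (1.22), was at least 2-fold higher, against 2.68% and 8.11% of all genes.

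The step from sham to day 2 in phagocytes rests on 63 sham cells with 223520 nuclear UMIs. Across all 9051 genes compared, 18% were at least 2-fold higher and 9.04% lower, so many genes differed between these libraries. Counts for the members were 2 of 8 AP-1 and Egr genes, 1 of 7 heat-shock genes and 10 of 24 others at least 2-fold higher, and 0 lower in each group. 5 of these genes had no sham UMI, and against the sham limit of 3 counts Fosb, Hspb1, Nr4a2, Nr4a3 and Maff were under 2-fold, which leaves 1, 0 and 7. With them at that limit the 3 medians went from 0.30 to 0.23, from 0.20 to -0.24 and from 0.49 to 0.27, so the heat-shock median changed sign. Among the genes with sham UMIs, Gadd45b, a stress sensor, measured 4.47 and 57.7 CPM (3.42, interval 1.17 to 5.73), on 1 sham UMI. Socs3 measured 26.8 and 264 CPM (3.25, interval 2.16 to 4.61), and its intervals in the 2 libraries lay apart. Klf2, a zinc-finger factor known for keeping myeloid and endothelial cells quiescent, was lower over the whole gate (246 and 127 CPM, -0.95), as was its relative Klf4 (103 and 59.8 CPM, -0.77). From sham to reversed, the medians were 1.12 for AP-1 and Egr, -0.45 for heat-shock and 1.30 for the others (the heat-shock median was 0.44 in cells with UMIs of at least 2 C1q genes), with 5 of 8, 1 of 7 and 14 of 24 at least 2-fold higher against 17.3% of 9095 genes, and 0 at least 2-fold lower against 5.56%. Hspb1 was that 1 heat-shock gene. At the sham limit, Hspb1, Nr4a3 and Maff again fell short, which leaves 5 of 8, 0 of 7 and 12 of 24, and the last median is then 1.02.

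**Figure D2:**
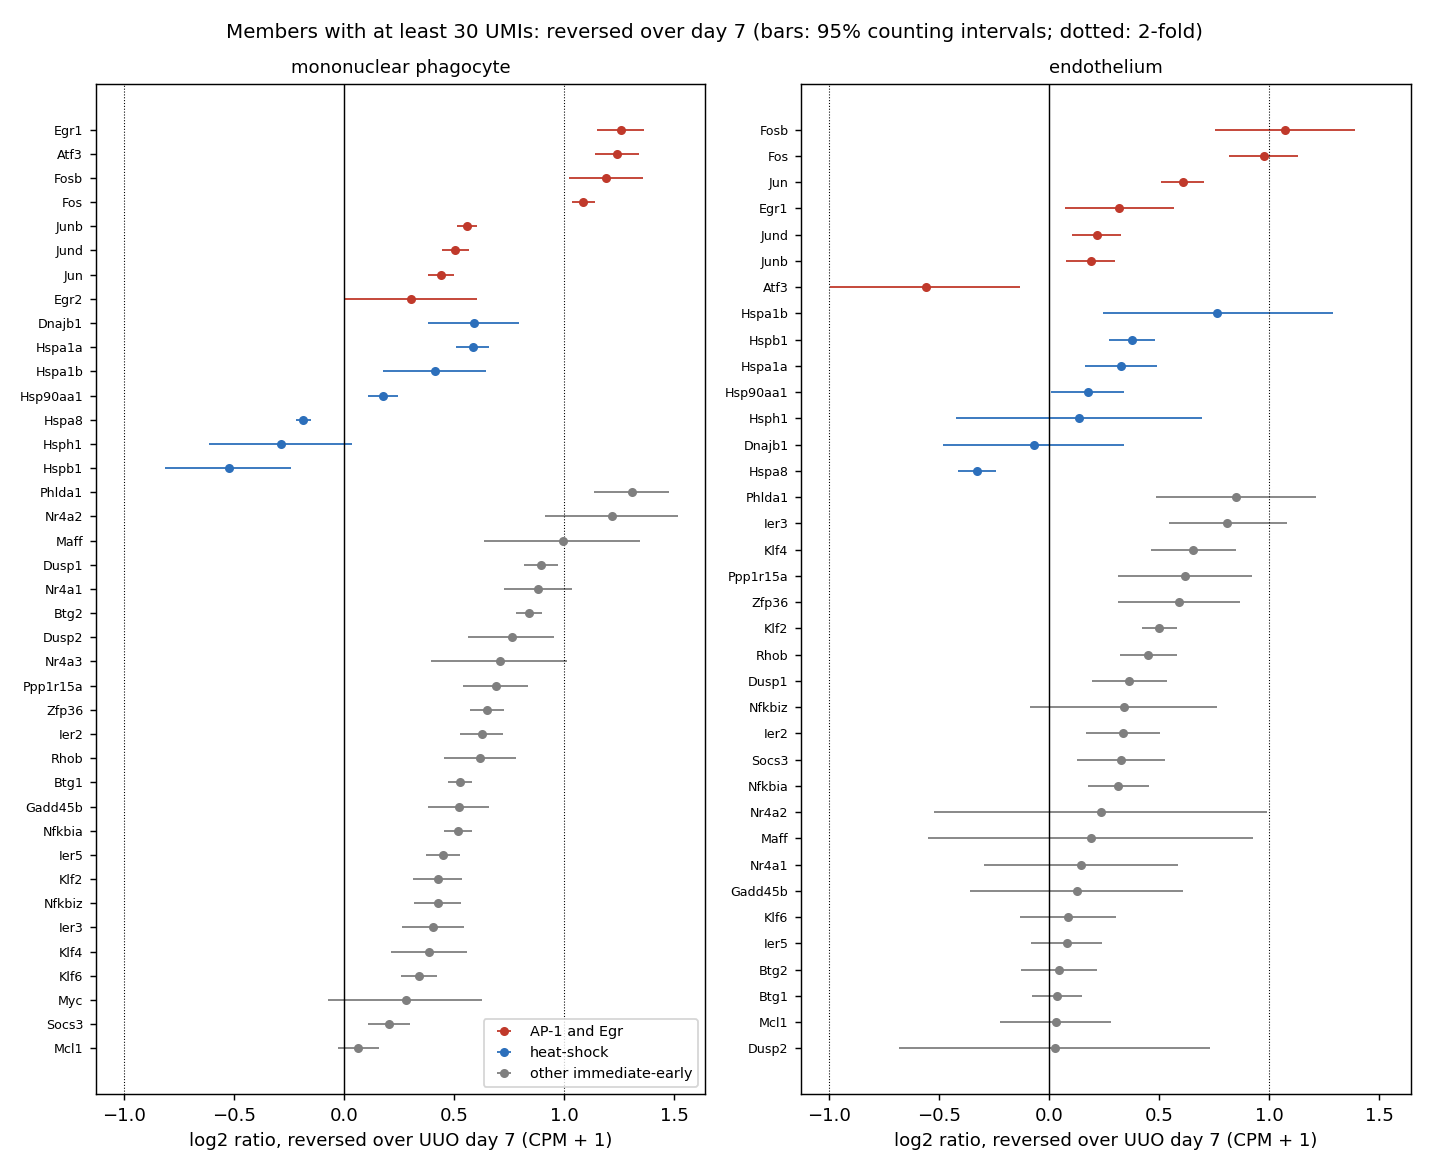
Log2 ratio (CPM + 1) of reversed over UUO day 7 for each member with at least 30 UMIs in phagocytes and endothelium; bars are 95% counting intervals and dotted lines mark 2-fold. In phagocytes Egr1, Atf3, Fosb and Fos lie right of the 2-fold line, and Hspa8, Hsph1 and Hspb1 left of 0.

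The phagocyte gate can hold macrophages and other monocytic cells. A split by UMIs of at least 2 of the complement genes C1qa, C1qb and C1qc, markers of tissue macrophages, was tried after the values were seen. The criterion was met by 54.0%, 60.5%, 98.4% and 86.0% of gated phagocytes, at median depths of 2930 to 9746 nuclear UMIs. It was also met by 0%, 9.02%, 75.9% and 25.8% of T or NK cells and 0.893%, 6.71%, 76.7% and 25.3% of endothelial cells, classes that should lack C1q, at median depths of 1744 to 3683. The sham T or NK value is 0 of 22 cells, with an exact upper limit of 15.4%. Without thinning, the criterion therefore did not separate kinds of phagocyte on day 7, and in part in reversed. In cells thinned to equal depth, it was met by 50.8%, 42.1%, 75.3% and 64.1% of phagocytes. The shares were then 0%, 0%, 23.8% and 4.12% of T or NK cells and 0%, 1.22%, 21.0% and 3.50% of endothelial cells. At that depth phagocytes met it more often than these classes in each library. The subset levels given here used the split without thinning. Whether the mixture of phagocytes differed between libraries was not determined. The paragraph below compares the subsets for sham and day 2. C1q-negative values given elsewhere for day 7 and reversed describe cells under that criterion only, not a kind of phagocyte.

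From sham to day 2, Hspa1a went opposite ways in the C1q-positive and C1q-negative cells. Hspa1a measured 345 and 572 CPM in C1q-positive cells and 1009 and 708 CPM in C1q-negative cells. Its ratio was 0.73 (interval 0.24 to 1.27) in the former and -0.51 (interval -0.77 to -0.24) in the latter, with 34 and 29 sham cells, and the list medians were 0.82 and -0.03. Klf2 measured 62.7 and 105 CPM in C1q-positive cells (0.73, interval -0.39 to 2.15) and 383 and 176 CPM in C1q-negative cells (-1.12), so its lower level on day 2 was that of the C1q-negative cells. The difference between the subsets was not tested.

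Phagocytes with Fos also held other immediate-early genes more often than those without. Among heat-shock genes in reversed, Hspa8 and Hsp90aa1 were held about as often by both, and Hspa1a and Dnajb1 more often with Fos. All cells were thinned to 1000 nuclear UMIs, so depth was equal. In reversed, 75.6% of the 246 cells with a Fos UMI also held Junb, against 39.3% of the 384 without. The corresponding shares were 32.1% and 11.5% for Egr1, 31.7% and 9.9% for Atf3, 44.3% and 15.4% for Dusp1, and 47.6% and 16.4% for Zfp36. Hspa8 was held by 72.8% and 72.7%, and Hsp90aa1, the inducible HSP90, by 32.5% and 35.4%. Hspa1a was held by 26.8% and 17.4% and Dnajb1 by 8.13% and 3.13%, each with overlapping intervals, and Hspb1 by 1.22% and 2.86%. On day 7 Hspa1a was held by 22.5% and 14.7%, with intervals that lay apart. Over the lists, the median share was 31.9% with and 10.7% without Fos for the AP-1 and Egr genes, and 8.13% and 3.65% for the heat-shock genes. Split instead by Hspa1a, 12.03% of the 133 cells with it held Hspa1b against 2.01% of the 497 without, 12.8% and 3.02% held Dnajb1, and 49.6% and 36.2% held Fos. These are shares of cells of 1 library from 3 pooled mice, given as a description.

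**Figure D3:**
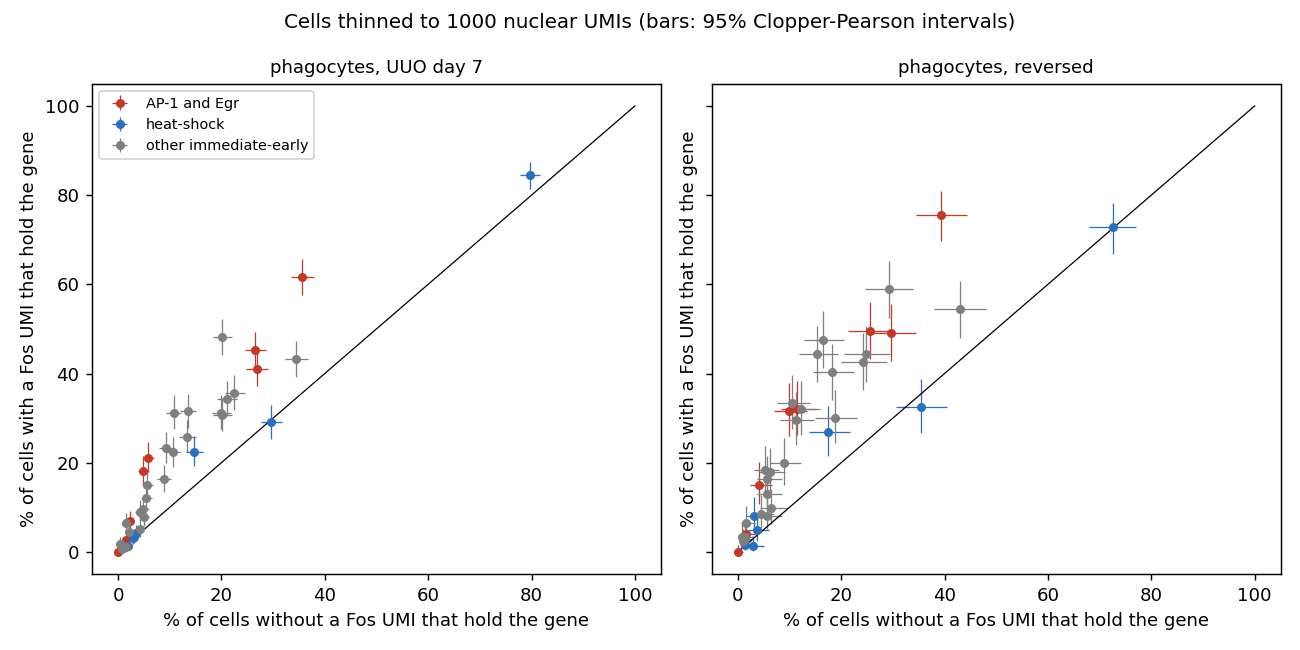
Share of phagocytes holding each other member among cells with a Fos UMI (vertical) and without one (horizontal), on UUO day 7 and in reversed, all cells thinned to 1000 nuclear UMIs; bars are 95% Clopper-Pearson intervals and the line marks equal shares. Most AP-1, Egr and other immediate-early genes lie above the line. In reversed Hspa8, at 72.8% and 72.7%, lies on it, and Hspa1a, at 26.8% and 17.4%, above it.

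Shares of thinned phagocytes did not always follow the summed levels: Jun was in 19.0%, 32.7%, 31.1% and 34.9% of them and Junb in 28.6%, 46.3%, 42.0% and 53.5%, with day 2 above day 7. Phagocytes with 3 or more different AP-1 or Egr genes made up 11.1%, 25.5%, 20.7% and 35.4% of the class. 18.3% of reversed phagocytes held none of the 9, against 26.8% on day 7. Phagocytes with a mitochondrial share above the median of their library held more AP-1 and Egr UMIs than those below it, 4777 against 3736 CPM in reversed and 3067 against 2133 CPM on day 2. The reversed library was above day 7 on both sides of the median (day 7, 2357 below and 2674 CPM above it). The heat-shock sum went the other way, at 2946 above and 3078 CPM below the median in reversed, and 4629 and 5155 CPM on day 2. The median mitochondrial share of phagocytes lay between 2.61% and 4.49% in the 4 libraries. The part of cell condition in these differences was not tested.

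In endothelium, the AP-1 and Egr sum stood higher at each later library (1268, 2119, 2606 and 3544 CPM), and the heat-shock sum was higher in all 3 later libraries (2565, 2722 and 2795 CPM) than in sham (1700 CPM). Thinned cells with no AP-1 or Egr UMI were 26.8% on day 7 and 25.9% in reversed. The tenth of cells with most held 48.4% and 55.7% of those UMIs. Cells with 3 or more of the genes were 16.3% and 20.8%. From sham to reversed, the AP-1 and Egr median was 1.69 and the heat-shock median 1.17, against -0.02 over 8320 genes. 6 of 7 AP-1 and Egr genes and 4 of 7 heat-shock genes were at least 2-fold higher, against 6.89% of all genes, and 0 of either was 2-fold lower, against 3.35%. In cells with an Ehd3 UMI, a split described below, the heat-shock count was 4 of 7 (median 1.40). In cells without one it was 1 of 6 (median 0.79). The AP-1 and Egr counts were 5 of 6 with Ehd3 and 6 of 7 without. Fos measured 66.8, 225, 267 and 526 CPM, and the share of thinned cells with a Fos UMI was 2.69%, 11.6%, 13.0% and 18.3%. Jun, the partner of Fos, measured 397, 523, 754 and 1150 CPM, with 4 intervals that did not overlap, while the share of thinned cells with Jun was 31.4%, 31.1%, 41.4% and 43.9%, level from sham to day 2. Fosb measured 5.27, 12.7, 62.2 and 132 CPM, on 3 UMIs in sham. Junb measured 236, 576, 670 and 764 CPM and Egr1 28.1, 63.5, 129 and 162 CPM, so each summed level was lowest in sham and highest in reversed. The share of thinned cells with Junb was 14.8%, 28.7%, 35.3% and 32.3%, highest on day 7. Atf3 departed from this order, at 3.52, 20.3, 60.2 and 40.5 CPM. Of the 7 AP-1 and Egr genes compared between reversed and day 7 it was the 1 that was lower (-0.56).

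Endothelial Hspa1a measured 86.1, 308, 291 and 365 CPM, lower in sham than in the 3 later libraries (day 2 over sham of 1.83, interval 1.38 to 2.30). Its course differed with Ehd3, a gene of glomerular endothelium: cells with an Ehd3 UMI measured 13.0, 96.3, 172 and 290 CPM, higher at each later library, and cells without one 239, 533, 442 and 479 CPM. This split used endothelial cells without thinning, at median depths of 2261 to 3683 nuclear UMIs. An Ehd3 UMI was also held by 17.3%, 15.8% and 18.0% of T or NK cells on day 2, day 7 and in reversed. The difference between the Ehd3 subsets was not tested. Hspb1 differed from Hspa1a in timing, at 404, 443, 700 and 908 CPM. Hspa8 was highest on day 2 (949, 1414, 1324 and 1055 CPM), and Dnajb1 lay between 51.7 and 59.8 CPM in all 4 libraries with overlapping intervals. In phagocytes as a whole Hspa1a was instead higher in sham and on day 2 than later, with a sham level that rested on the C1q-negative cells. The difference between the classes was not tested.

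Comparison by comparison, endothelium from sham to day 2 had 3 of 5 AP-1 and Egr genes, 1 of 5 heat-shock genes and 2 of 18 others at least 2-fold higher, against 3.76% of 6468 genes, and 0 lower against 3.43%. From day 2 to day 7 the counts were 3 of 7 (Fosb, Atf3 and Egr1), 0 of 7 and 1 of 22 (Nfkbiz) against 5.47%, and 0 lower against 3.1%. From day 7 to reversed they were 1 of 7 (Fosb), 0 of 7 and 0 of 22 against 1.77%, and 0 lower against 1.48%. After subtraction by phagocyte markers, Egr1 left the count of day 7 over day 2 (2 of 7) and Fos joined that of reversed over day 7 (2 of 7). The medians of the AP-1 and Egr list over these 3 steps were 1.13, 0.58 and 0.22. The first was 0.37 in thinned cells, 0.57 with a pseudocount of 10 CPM, 0.55 with mixed cells kept, and 0.73 and 0.69 in Ehd3-positive and Ehd3-negative cells. The second was 0.24 with that pseudocount and 0.35 after subtraction of free RNA by proximal tubule genes.

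Other immediate-early genes of endothelium did not share a single course. Klf2, a flow-responsive factor of endothelium, measured 1923, 1895, 1162 and 1645 CPM, lowest on day 7. Its relative Klf4 followed the same shape, at 325, 272, 190 and 300 CPM. Dusp1 was highest in sham at 447 CPM and measured 273, 267 and 345 CPM later, unlike in phagocytes. Socs3 measured 68.6, 218, 196 and 247 CPM, and Ier3, an early-response survival gene, 38.7, 83.8, 94.8 and 167 CPM. Nfkbiz, a regulator of NF-kB targets, measured 3.52, 15.2, 43.9 and 55.8 CPM, on few UMIs in sham.

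In endothelium, cells with Fos more often held Hspa1a as well. In reversed, 36.8% of the 68 thinned cells with a Fos UMI held Hspa1a, against 11.6% of the 303 without, and 14.7% and 3.63% held Dnajb1. The shares for Jun were 69.1% and 38.3%. Of the 60 cells with Hspa1a, 41.7% held Fos and 71.7% held Jun, against 13.8% and 38.6% of the 311 others. Cells with a mitochondrial share below the median held the higher AP-1 and Egr sum in all 4 libraries (3828 against 3287 CPM in reversed, 1644 against 889 CPM in sham), the reverse of phagocytes. Without thinning, Ehd3-positive cells, which include the glomerular endothelium, made up 64.7%, 48.2%, 53.2% and 56.3% of the gate. In thinned cells these shares were 57.0%, 34.1%, 33.8% and 34.0%, so the later libraries were then level. An Ehd3 UMI was held by 4.51%, 4.30% and 4.87% of thinned T or NK cells on day 2, day 7 and in reversed. Without thinning, the Ehd3-positive cells gave AP-1 and Egr sums of 1127, 1751, 2270 and 3070 CPM. Ehd3-negative cells gave 1562, 2508, 3032 and 4263 CPM, so the order of libraries held in both.

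Phagocyte RNA in the other gates was highest on day 7. The 16 phagocyte gate markers summed to 232, 589, 4858 and 2513 CPM in endothelium and to 289, 1486, 6206 and 2318 CPM in proximal tubule, against 32368 to 84435 CPM in phagocytes. The endothelial share of free RNA estimated from these markers was 10.9%, 4.56%, 11.7% and 13.7%, so it was higher in reversed than on day 7 although the marker sum was lower. When a share of each library's summed profile, set by those markers, was subtracted, endothelium kept AP-1 and Egr sums of 1205, 2028, 2325 and 3172 CPM, in the same order, and Fos levels of 57.5, 208, 219 and 448 CPM. The share set by proximal tubule genes was 10.3%, 9.51%, 26.3% and 12.4%. On day 7, where it was largest, proximal tubule cells were 3.64% of the kept cells and phagocytes 55.0%. With this share subtracted instead, the sums were 1208, 1930, 1977 and 3206 CPM, with little left of the step from day 2 to day 7. Fos was then 58.0, 190, 159 and 455 CPM and Junb 226, 523, 478 and 678 CPM, both lower on day 7 than on day 2. The subtraction by phagocyte markers was chosen after the data were seen, and both use the sum over cells, since empty droplets were not analysed here.

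In proximal tubule, the AP-1 and Egr sum was low in sham and higher in all 3 later libraries (217, 721, 815 and 619 CPM), and Hspa8 and Hsp90aa1, which make up most heat-shock UMIs there, were within 2-fold. After subtraction of free RNA by phagocyte markers the AP-1 and Egr sums were 142, 506, 460 and 275 CPM, highest on day 2 and still lowest in sham. Signs of RNA quality moved with these groups: the median mitochondrial share of the gated cells was 35.0%, 24.2%, 22.4% and 31.4%, their median nuclear UMIs were lowest in sham, and 1607 of 5938 sham cells had been left out for a high mitochondrial share. Among cells with at most 20% mitochondrial UMIs the AP-1 and Egr median of day 2 over sham was 1.11, and that of reversed over sham 2.24. Jun measured 21.1, 157, 229 and 159 CPM, Junb 12.6, 89.7, 144 and 106 CPM, and Jund 169, 417, 312 and 195 CPM. From sham to day 2 the AP-1 and Egr median was 2.00 and 5 of 5 compared were at least 2-fold higher, with 13 of 16 others and 3 of 7 heat-shock genes, against 6.47% of 9999 genes, and 0 lower against 2.44%. After subtraction of free RNA by phagocyte markers, 4 of 5, 9 of 16 and 1 of 7 were at least 2-fold higher, and Hspa1a was at least 2-fold lower. Hspa8, at 1743, 2011, 1983 and 1726 CPM, had ratios of 0.21, -0.02 and -0.20 over the library before. Hspa1a, at 8.95, 24.3, 59.8 and 36.1 CPM, and Hspb1, at 4.25, 23.9, 29.2 and 38.2 CPM, were low throughout and higher after sham before free RNA was subtracted. After subtraction by phagocyte markers, Hspa1a was 2.08, 0, 25.4 and 10.1 CPM, so day 2 was then below sham. Rhob, a small GTPase, had the largest ratio on day 2 among the other genes, at 8.21 and 108 CPM (3.57, interval 3.18 to 3.96). Next came Socs3, at 1.32 and 15.4 CPM, Myc, the growth regulator, at 1.17 and 14.1 CPM, and Nfkbiz, at 3.37 and 23.1 CPM. Socs3 was left at 0.142 CPM in sham and 0 CPM on day 2 by the same subtraction.

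The proximal tubule values depend on free RNA and on the gate. After subtraction by phagocyte markers, Fos was at 0 CPM in sham, day 2 and day 7 and at 13.3 CPM in reversed, while Jun kept 9.39, 122, 158 and 91.2 CPM and Jund 132, 351, 235 and 128 CPM. Thinned proximal tubule cells with a Fos UMI were 0.671%, 2.62%, 5.56% and 6.31%, and 491 of the 3174 sham cells were too shallow to thin. Among cells with at most 20% mitochondrial UMIs, the Fos ratio of day 2 over sham changed sign, to -0.77. The day 7 gate held 162 cells, and clusters in its place held 268.

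From day 2 to day 7 the proximal tubule AP-1 and Egr median was 0.67, with 4 of 7 genes at least 2-fold higher, 2 of 6 heat-shock genes and 2 of 17 others, against 5.01% of 7991 genes, and 0 lower against 3.2%. After subtraction by phagocyte markers the counts were 3 of 7, 2 of 6 and 4 of 17 higher, and 3 of the 17 lower. From day 7 to reversed the medians were 0.08, -0.21 and -0.52 for AP-1 and Egr, heat-shock and other genes, and the first was -0.43 with the gene at 0 UMIs on day 7 at its limit. The first turned with the choice of cells, to -1.70 with clusters in place of gates and -0.88 with mixed cells kept. 0 members were at least 2-fold higher there, against 4.42%, and 4 of 20 other genes (Klf4, Gadd45b, Nfkbiz and Rhob) were at least 2-fold lower, against 3.81%. After that subtraction 7 of the 20 were lower, with 2 of 7 heat-shock genes and 1 of 7 AP-1 and Egr genes, while Fos and Nr4a1 were at least 2-fold higher. From sham to reversed, 6 of 7 AP-1 and Egr genes, 3 of 7 heat-shock genes and 19 of 20 others were at least 2-fold higher, against 7.62% of 10591 genes, and 0 lower against 0.236%. After subtraction by phagocyte markers these counts were 6 of 7, 2 of 7 and 10 of 20. The AP-1 and Egr median of that comparison was 2.89, and the heat-shock median 0.64.

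**Figure D4:**
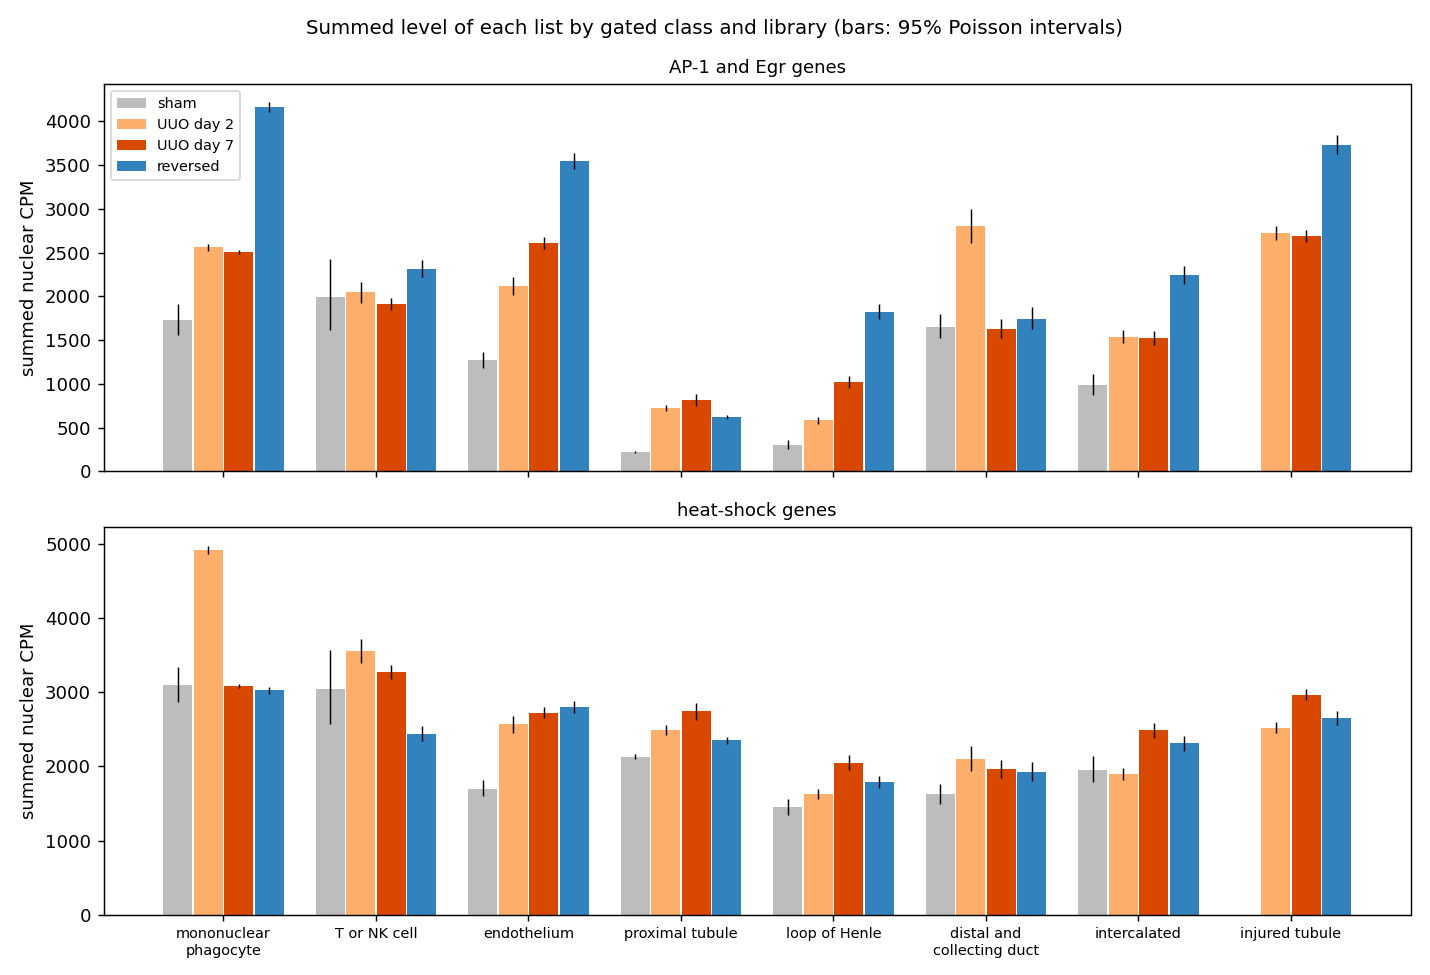
Summed nuclear CPM of the AP-1 and Egr genes (top) and heat-shock genes (bottom) in 8 gated classes by library, with 95% Poisson intervals; injured tubule is blank in sham, where it had 1 cell. The AP-1 and Egr sum is highest in reversed in phagocytes, T or NK cells, endothelium, loop of Henle, intercalated and injured tubule cells, and on UUO day 2 in the distal and collecting duct.

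Other classes placed these courses side by side. In loop of Henle cells, the AP-1 and Egr genes summed to 304, 584, 1017 and 1822 CPM, and Fos measured 28.5, 41.2, 97.0 and 374 CPM. Thinned cells with none of these genes were 52.3% on day 7 and 52.2% in reversed. The tenth of cells with most held 43.5% and 57.7% of the AP-1 and Egr UMIs. Cells with 3 or more of the genes were 3.60% and 9.45%. Reversed over day 7 gave log2 ratios of 1.94 for Fos, 4.00 for Fosb, 2.08 for Atf3, 1.52 for Egr1 and 1.30 for Jun in those cells, 0.26 for Junb and 0.00 for Jund, against a median of 0.09 over 7328 genes. The Fosb ratio rests on 3 UMIs on day 7 (interval 2.62 to 5.42). Junb was in 24.3% of thinned cells on day 7 and 14.4% in reversed, opposite to its summed level. Over the same step the phagocyte marker sum was lower in reversed (1615 CPM) than on day 7 (4048 CPM). No share of free RNA was estimated for loop of Henle cells, so the part of phagocyte RNA in these ratios was not tested. The heat-shock sum of loop of Henle cells was 1450, 1627, 2050 and 1787 CPM, and Dnajb1 measured 18.4, 28.1, 19.4 and 56.6 CPM, highest in reversed.

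Intercalated cells, which secrete acid or bicarbonate in the collecting duct, also held more Fos in reversed (119, 215, 191 and 515 CPM) and more Egr1 (91.1, 69.8, 29.4 and 211 CPM). In the distal and collecting duct the order differed: Fos was highest on day 2 (400, 760, 299 and 440 CPM), and sham was already high. Injured tubule cells, gated on injury markers, measured 456, 391 and 851 CPM of Fos and 866, 806 and 915 CPM of Jund on day 2, day 7 and in reversed. T or NK cells showed little difference in Fos (119, 84.9 and 111 CPM over the same libraries), while their heat-shock sum was lowest in reversed (3547, 3272 and 2438 CPM), with Hspa8 at 2753, 2408 and 1592 CPM. Klf2, which marks resting and recirculating T cells, was 441, 340 and 146 CPM in them. In reversed, 16 of the 40 members had their highest level in phagocytes, 9 in endothelium, 7 in T or NK cells, 7 in injured tubule and 1 in intercalated cells. The share of all genes with their highest level in each class was not determined, so these counts only describe the members.

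Further genes of the same pathways gave medians nearer 0. Of 35 further immediate-early genes in the files, 30 were compared in phagocytes between reversed and day 7. Their list median was 0.22, with 1 at least 2-fold higher, the kinase Sgk1 (26.5 and 58.5 CPM on day 7 and in reversed), and 1 lower, the matricellular gene Cyr61 (10.5 and 4.18 CPM), shares close to the 1.85% and 0.986% of all genes. Of 22 further heat-shock and chaperone genes 0 passed 2-fold either way, with a median of -0.04. In endothelium from sham to reversed, the further immediate-early median was 0.33, with 3 of 21 at least 2-fold higher and 2 lower, against 6.89% and 3.35% of all genes. Among the 2 was Ctgf, a matricellular gene, at 121 and 15.9 CPM. The further chaperone median there was 0.12, with Hspb8, a small heat-shock protein, at 5.27 and 38.2 CPM and Cryab, the small heat-shock protein alpha-B crystallin, at 230 and 97.5 CPM. In proximal tubule the same comparison gave medians of 0.56 and 0.20.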

How the data were processed

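Single-cell 3' libraries were made by the authors with droplets, and the deposited files hold UMI counts per gene and cell, not normalized. Cell Ranger, STAR and the builds GRCm38 and mm10 are named in the submitters' processing notes, and versions are not given in the sources used here. The other deposited files pair gene IDs with symbols or list barcodes. Members and gene lists were chosen with earlier results of these data known.

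Cells under 200 genes or over 50% mitochondrial UMIs were left out, and the rest scored by the mean log level of each class's markers, relative to its 100 best cells. A cell entered a class with at least 3 markers, a score of at least 0.25 and 1.5 times the next score, except between 2 tubule classes, where the better was taken. 365 cells were mixed and 473 ungated. Doublets were not called beyond this. Member counts were summed per class and library and divided by nuclear UMIs, with a pseudocount of 1 CPM. Per class and comparison, up to 5 members of each list with at least 30 UMIs and the largest ratios were named, and others by range. With 1 library per group no test was made. Thinned cells were sampled to 1000 nuclear UMIs with a fixed seed. Alternatives used edgeR 4.0.16 (TMM factors only), DESeq2 1.42.0 (size factors only) and scanpy 1.11.5 clusters. Interval code was tested on simulated data. Promoters are RefSeq (GRCm38.p6). Cebpd was not analysed here.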

Additional observations from a re-analysis of the deposited data

Results flagged for a closer look

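Hspa1a, the inducible HSP70, was at least 2-fold apart in opposite directions between UUO day 2 and day 7 in 2 cell classes. In proximal tubule its log2 ratio was 1.26, from 24.3 to 59.8 CPM, and in mononuclear phagocytes it was -1.09, from 615 to 288 CPM. Each class had 1 library per time point, and the difference between the classes was not tested. Phagocyte marker RNA in the proximal tubule gate was 1486 CPM on day 2 and 6206 CPM on day 7. After subtraction of a profile share set by those markers, tubular Hspa1a was at 0 CPM on day 2 and 25.4 CPM on day 7, in the same direction.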

How the results depend on the processing

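No paired analysis was possible because each group held 1 library. The 24 list medians (2 lists, 3 classes, 4 comparisons) were recomputed under 17 alternatives, of which the C1q and Ehd3 subsets and the subtraction by phagocyte genes were chosen after seeing the data; 297 of 328 values lay within the counting range of the main one, 31 did not, and 0 medians past 2-fold changed sign. The cause of these shifts was not tested. The C1q subsets, taken without thinning, do not separate kinds of cell on day 7, where 75.9% of T or NK cells met the same criterion. Among thinned cells of day 7 it was met by 23.8% of T or NK cells and 75.3% of phagocytes. In phagocytes, the AP-1 and Egr median of day 7 over day 2 was -0.048 with TMM factors, -0.064 with DESeq2 size factors, -0.17 with cells weighted equally, -0.16 after subtraction by proximal tubule genes and 0.20 in C1q-negative cells, and that of reversed over day 7 was 0.041 in C1q-negative cells. The phagocyte heat-shock median of day 7 over day 2 was -0.86 in thinned cells and -0.73 after subtraction, and that of reversed over day 7 was 0.30 with equal weights, 0.37 in thinned cells, 0.37 after subtraction and 0.46 in C1q-negative cells. In endothelium, the AP-1 and Egr median of day 7 over day 2 was 0.77 with equal weights and 0.24 with a pseudocount of 10 CPM. It was 0.73 in Ehd3-positive and 0.79 in Ehd3-negative cells. The AP-1 and Egr median of reversed over sham was 2.48 without members under 30 UMIs. The heat-shock median of reversed over sham was 1.40 in Ehd3-positive and 0.79 in Ehd3-negative cells. In proximal tubule, the AP-1 and Egr median of day 2 over sham was 0.86 with a pseudocount of 10 CPM and 1.11 at no more than 20% mitochondrial UMIs, and that of reversed over sham 1.42 and 2.24. With clusters in place of gates it was 1.90 for day 7 over day 2 and -1.70 for reversed over day 7, the latter -0.88 with mixed cells kept, and the heat-shock median of reversed over day 7 was -0.62 with clusters. The tubular heat-shock median of day 2 over sham was 0.55 with all UMIs as the total, 0.19 with TMM factors, 0.21 with size factors and 0.20 after subtraction by phagocyte genes, and that of reversed over sham 0.74 with all UMIs and 0.40 with TMM factors. The TMM factors moved all proximal tubule ratios of day 2 over sham by -0.16 and of reversed over sham by -0.24.

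Of 2460 recomputed values for 180 ratios of single members, 371 lay outside the counting range and 12 past 2-fold changed sign. Of 108 recomputed shares of cells with a UMI, 58 lay outside their interval, 29 of 36 without thinning and 24 of 36 at 500 UMIs, so a share holds only for its stated depth. The sign changes in C1q-negative phagocytes were Phlda1 (0.17) and Ier3 (0.062) for day 7 over day 2, and Atf3 (-0.56), Fos (-0.52) and Phlda1 (-0.97) for reversed over day 7. In proximal tubule they were Fos (-0.77, day 2 over sham, at no more than 20% mitochondrial UMIs), Hspa1a (-1.62) and Socs3 (-0.19) for day 2 over sham and Socs3 (-0.19) for reversed over sham after subtraction by phagocyte genes, and in thinned cells Atf3 (-0.44) and Hsph1 (-0.34) for day 7 over day 2 and Hspa1b (-0.031) for reversed over sham. With 1 library per group, depth sets only the counting error, and the 63 sham phagocytes limit every ratio over sham in that class.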
